A study of Rattus norvegicus with 9 samples.

Results

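The 6 keratin genes of the suprabasal layers of tongue epithelium, Krt1, Krt10, Krt4, Krt13, Krt78 and Krt24, were followed across rat tongue samples. They were taken as every probe set whose only annotated gene symbol was 1 of these names, which gave 1 probe set for each of the 6 genes among 14217 genes measured. Total RNA of tongue tissue from Sprague-Dawley rats, males by the treatment protocol, was hybridised to 9 Affymetrix rat genome arrays, 3 in each group. IL-1Ra rats (4NQO+IL-1Ra in the labels) had the carcinogen 4-nitroquinoline oxide (4NQO) and the interleukin-1 receptor antagonist, a protein that binds the IL-1 receptor without triggering it. 4NQO rats had the carcinogen, by the methods with saline injections, and normal rats were given distilled water. By the labels 4NQO was drunk as a 0.002% solution and rats with visible lesions were killed from week 14 to week 22. The methods instead give 14 weeks of 4NQO, then weekly injections under the tongue mucosa from week 14, and a single end at week 22. Neither rat age nor the stage of the lesion on each array was given. The series' design text mentions epithelia and fibroblasts, but every sample is labelled as tongue tissue.

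Keratins are the intermediate filament proteins of epithelial cells, and a filament is built from pairs of 1 type II and 1 type I chain. In stratified epithelium, dividing basal cells make Krt5 and Krt14, and cells that leave the basal layer switch to suprabasal pairs. Krt4 (type II) and Krt13 (type I) are the pair of soft, non-cornified mucosa, whereas Krt1 (type II) and Krt10 (type I) are the pair of skin and other cornifying surfaces. Krt78 is a type II keratin of differentiated layers and Krt24 a type I keratin whose role is less well known. The rat tongue carries both kinds of surface, since its upper face is covered with cornified filiform papillae, which also make hair-type keratins.

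All values are log2 of the deposited intensity, and a difference of 1 means a doubling. Arrays correlated at 0.967 to 0.995 over all probe sets. As tongue is a mixed tissue, fewer cells of a type and less RNA per cell cannot be told apart. Of the markers that define the cell types of a tongue piece, 0 of 7 general keratinocyte genes, 1 of 15 skeletal muscle genes, 0 of 10 fibroblast genes and 0 of 7 endothelial genes lay below the median level of all probe sets, whereas 8 of 9 salivary gland genes did. The arrays therefore held muscle and stroma as well as epithelium. Beta-actin control probe sets, read at the 3′ end minus the 5′ end as a measure of RNA integrity, differed by 0.98 to 1.27 on IL-1Ra arrays, 1.07 to 1.29 on 4NQO arrays and 0.74 to 0.86 log2 on normal arrays. On this measure normal arrays overlapped neither IL-1Ra nor 4NQO arrays. The same measure was 0.26 to 0.28 on IL-1Ra arrays, 0.31 to 0.43 on 4NQO arrays and 0.23 to 0.30 on normal arrays for GAPDH, and 1.80 to 2.20, 1.29 to 1.78 and 1.47 to 1.53 for hexokinase in the same groups, so both separated IL-1Ra from 4NQO arrays. The part of these measures in the results was not tested.

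In 4NQO tongues against normal tongues, 1 of the 6 keratins, Krt78, fell past the threshold (limma, Benjamini-Hochberg adjusted p below 0.05) and 0 rose; at an unadjusted p below 0.05 these numbers were 3 and 0. Over all probe sets 14.9% passed, 5.44% lower and 9.41% higher. In IL-1Ra tongues against 4NQO tongues the same single keratin rose, where 2.33% of probe sets passed and 1.59% were higher. At an unadjusted p below 0.05, 5 of the 6 were higher in IL-1Ra tongues. Between IL-1Ra and normal tongues 0 keratins passed by limma, where 1.87% of probe sets did, and 1 of the 6, Krt1, had an unadjusted p below 0.05. Such p-values were common: of 31042 probe sets tested, 10209 had a limma unadjusted p below 0.05 in 4NQO against normal tongues, in either direction. The number was 5909 in IL-1Ra against 4NQO tongues and 7044 in IL-1Ra against normal tongues. All unadjusted counts, here and below, stand beside these numbers. The median difference of the 6 keratins was -0.70 for 4NQO against normal, 1.47 for IL-1Ra against 4NQO and 0.15 for IL-1Ra against normal, with medians over all probe sets of 0.01, -0.02 and -0.01 in the same comparisons. The 4NQO arrays are shared by the first comparison and the second, so a low value there enters both. Leaving out 1 array moved these counts. Without 4NQO array 3 the count was 3 for 4NQO against normal (Krt13, Krt78 and Krt24), 4 for IL-1Ra against 4NQO (Krt10, Krt13, Krt78 and Krt24) and 1 for IL-1Ra against normal (Krt1). Without 4NQO array 2 it was 2 (Krt1 and Krt78), 1 (Krt78) and 1 (Krt1), and with any single IL-1Ra array left out no keratin passed between IL-1Ra and 4NQO tongues.

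**Figure D1:**
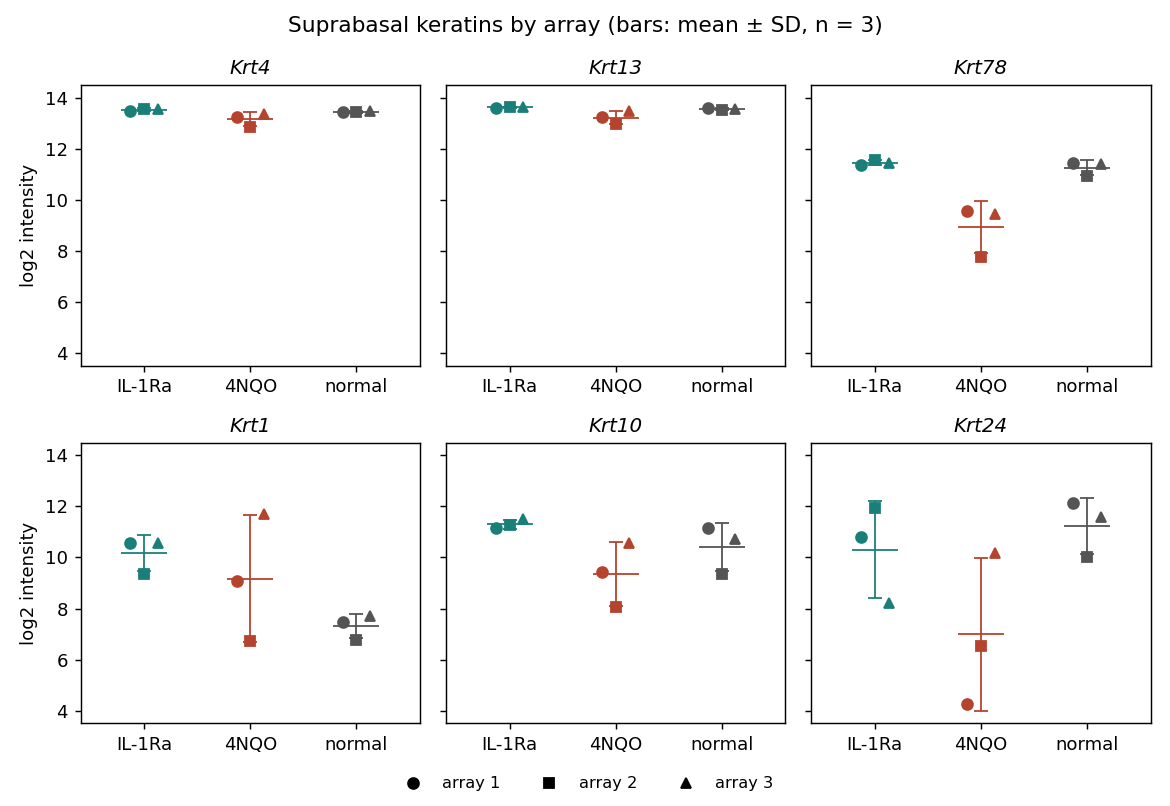
Log2 intensity (y axis) of each suprabasal keratin on the 3 arrays of the IL-1Ra, 4NQO and normal groups (x axis); marker shapes give the array number within its group, and bars the mean and SD. Krt4 and Krt13 sit near the top of the scale in every group, Krt78 is lower on all 4NQO arrays, and Krt1 and Krt24 spread most among the 4NQO arrays, with SDs of 2.49 and 2.99.

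The region around the transcription start was available from RefSeq (GRCr8) for 4 of the 6 genes, and these windows are shown as a description. Their part in the measured levels was not tested. Each runs from 250 bases before to 50 bases after the start, 5′ to 3′ on the gene's own strand. Capitals mark matches, on either strand, to TATAA (TATA box), TGANTCA (AP-1), CCACCC (KLF factors) or AACCNGTT (grainyhead-like factors), and no matches overlapped. Krt4 lies at chr7:134930664-134930963, Krt78 at chr7:134960678-134960977, Krt10 at chr10:84839111-84839410 and Krt24 at chr10:84733437-84733736, all on the minus strand. For Krt1 and Krt13 no sequence is given.
Krt4: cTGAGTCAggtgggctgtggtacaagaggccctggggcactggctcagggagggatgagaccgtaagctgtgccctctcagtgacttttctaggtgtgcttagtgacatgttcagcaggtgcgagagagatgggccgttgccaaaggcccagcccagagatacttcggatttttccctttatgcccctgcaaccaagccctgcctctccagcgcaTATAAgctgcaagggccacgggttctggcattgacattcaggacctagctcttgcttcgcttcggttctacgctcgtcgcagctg
Krt78: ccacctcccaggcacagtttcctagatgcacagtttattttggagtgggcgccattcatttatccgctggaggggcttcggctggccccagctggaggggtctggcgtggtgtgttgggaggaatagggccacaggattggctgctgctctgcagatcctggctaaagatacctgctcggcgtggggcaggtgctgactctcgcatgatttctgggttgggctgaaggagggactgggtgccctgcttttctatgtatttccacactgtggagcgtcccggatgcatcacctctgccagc
Krt10: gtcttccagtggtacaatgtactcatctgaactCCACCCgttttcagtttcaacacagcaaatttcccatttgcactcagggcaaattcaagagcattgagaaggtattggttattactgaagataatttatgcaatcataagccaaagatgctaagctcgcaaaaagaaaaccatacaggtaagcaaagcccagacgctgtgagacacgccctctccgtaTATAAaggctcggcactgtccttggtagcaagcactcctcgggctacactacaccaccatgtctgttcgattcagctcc
Krt24: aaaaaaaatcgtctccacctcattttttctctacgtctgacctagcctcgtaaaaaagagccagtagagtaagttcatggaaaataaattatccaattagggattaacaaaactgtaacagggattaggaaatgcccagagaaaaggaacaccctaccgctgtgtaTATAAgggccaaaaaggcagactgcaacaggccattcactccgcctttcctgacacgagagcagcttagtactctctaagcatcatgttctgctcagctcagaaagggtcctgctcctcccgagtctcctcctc
Counting from the start site, TATAA began at position -35 in Krt4, -29 in Krt10 and -84 in Krt24. These letters occur in 26.2% of 33469 rat promoter windows of this length. Krt4 also held the AP-1 letters at -249 (in 7.33% of windows) and Krt10 the KLF letters at -217 (in 29.4%). The grainyhead letters, found in 2.1% of windows, were in none of the 4, and none of the searched letters were in the Krt78 window. A match of letters is a description and not a binding site.

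The mucosal pair, Krt4 and Krt13, kept a high level in all groups. Krt4 read 13.49, 13.54 and 13.57 on the IL-1Ra arrays, 13.25, 12.85 and 13.38 on the 4NQO arrays and 13.42, 13.42 and 13.48 on the normal arrays. Krt13 read 13.61, 13.64 and 13.64 on the IL-1Ra arrays, 13.24, 12.96 and 13.47 on the 4NQO arrays and 13.58, 13.51 and 13.56 on the normal arrays. For both genes every 4NQO array lay below every normal array, and every IL-1Ra array lay above both other groups. The distances were small. Krt4 was 0.28 log2 lower in 4NQO than in normal tongues (SE 0.13, 1.22-fold lower, adjusted p = 0.172) and 0.38 higher in IL-1Ra than in 4NQO tongues (1.30-fold, adjusted p = 0.167). For Krt13 the 4NQO mean was 0.33 below the normal mean (SE 0.13, 1.26-fold lower, adjusted p = 0.110), and the IL-1Ra mean was 0.41 above the 4NQO mean (1.33-fold, adjusted p = 0.129). Neither gene passed in the limma fit of all 9 arrays. Without 4NQO array 3, Krt13 passed in both comparisons, at -0.45 (adjusted p = 0.0330) and 0.53 (adjusted p = 0.0276), whereas without 4NQO array 2 the differences were -0.20 (adjusted p = 0.249) and 0.27 (adjusted p = 0.282). IL-1Ra tongues exceeded normal tongues by 0.09 for Krt4 (95% CI -0.20 to 0.39) and 0.08 for Krt13 (95% CI -0.21 to 0.37). The mean of both probe sets stood above 99.9% of all probe sets, and whether such bright signals were compressed was not tested.

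Non-overlap of the 3 arrays of a group with the 3 of another was common on these arrays. In 4NQO against normal tongues 3 of the 6 keratins (Krt4, Krt13 and Krt78) were lower without overlap, as were 17.6% of all probe sets. For IL-1Ra against 4NQO tongues 4 of the 6 (Krt4, Krt13, Krt78 and Krt10) were higher without overlap, against 8.92% of probe sets. Between IL-1Ra and normal tongues 3 of the 6 (Krt1, Krt4 and Krt13) were higher without overlap, against 19.4%.

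Krt78 was the keratin that passed the test. It read 11.38, 11.55 and 11.45 on the IL-1Ra arrays, 9.58, 7.74 and 9.45 on the 4NQO arrays and 11.45, 10.92 and 11.41 on the normal arrays. All 4NQO arrays were low, array 2 the lowest, and the IL-1Ra and normal arrays overlapped each other. Krt78 averaged 8.93 ± 1.02 in 4NQO tongues and 11.26 ± 0.29 in normal tongues (SD, n = 3 each), a difference of -2.34 log2 (SE 0.40, 95% CI -3.23 to -1.44, 5.05-fold lower), with a limma adjusted p of 0.00893. It averaged 11.46 ± 0.09 in IL-1Ra tongues, 2.54 above the 4NQO mean (95% CI 1.64 to 3.43, 5.80-fold higher, limma adjusted p = 0.0141). The fall in 4NQO tongues passed whichever array was left out, with adjusted p up to 0.0460. The rise in IL-1Ra tongues was 1.95 without 4NQO array 2 and 2.86 without 4NQO array 1, and passed in both cases. Without IL-1Ra arrays 1, 2 and 3 it was 2.58, 2.49 and 2.54, with adjusted p of 0.0536, 0.0651 and 0.0531, and with only the 6 arrays compared its adjusted p was 0.0537. IL-1Ra and normal tongues differed by 0.20 (95% CI -0.69 to 1.09, adjusted p = 0.801).

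The cornifying pair, Krt1 and Krt10, did not move as 1 unit. Krt1 read 10.57, 9.37 and 10.57 on the IL-1Ra arrays, 9.08, 6.73 and 11.71 on the 4NQO arrays and 7.47, 6.77 and 7.70 on the normal arrays. The normal arrays were all low, the IL-1Ra arrays were all above them, and the 4NQO arrays reached from the lowest value of the 9 to the highest. Krt1 averaged 10.17 ± 0.69 in IL-1Ra tongues and 7.31 ± 0.49 in normal tongues, 2.85 log2 apart (SE 0.96, 95% CI 0.71 to 5.0, 7.23-fold higher), with a limma adjusted p of 0.125. That value depends on which arrays set the error. With only the 6 arrays compared the adjusted p was 0.0119, with array weights 0.0261, without 4NQO array 2 it was 0.0391 and without 4NQO array 3 it was 0.0277. With any other single array left out it was 0.145 to 0.315, and with a variance trend 0.193. In 4NQO tongues Krt1 averaged 9.17 ± 2.49, 1.86 above normal tongues (95% CI -0.29 to 4.00, adjusted p = 0.208). This difference was 3.08 without 4NQO array 2 (adjusted p = 0.0250) and 0.59 without 4NQO array 3. IL-1Ra tongues were 1.00 above 4NQO tongues (adjusted p = 0.625), and without 4NQO array 2 the sign turned, to -0.22.

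Krt10 followed a course less like that of Krt1 (Pearson r = 0.57 over the 9 arrays) than those of Krt13 (0.92), Krt4 (0.90) and Krt78 (0.84). It read 11.13, 11.27 and 11.49 on the IL-1Ra arrays, 9.43, 8.07 and 10.55 on the 4NQO arrays and 11.15, 9.37 and 10.73 on the normal arrays. IL-1Ra arrays lay above all 4NQO arrays, while the 4NQO and normal arrays overlapped. The 4NQO mean, 9.35 ± 1.24, was 1.07 below the normal mean of 10.42 ± 0.93 (95% CI -2.36 to 0.22, adjusted p = 0.225). The IL-1Ra mean of 11.30 ± 0.18 was 1.95 above the 4NQO mean (95% CI 0.66 to 3.24, 3.87-fold higher), with a limma adjusted p of 0.110. That difference was 1.31 without 4NQO array 2 (adjusted p = 0.248) and 2.55 without 4NQO array 3 (adjusted p = 0.0232), and the difference of 4NQO from normal was -0.43 without 4NQO array 2 and -1.67 without 4NQO array 3. Against normal tongues the IL-1Ra mean was 0.88 higher (95% CI -0.41 to 2.17, adjusted p = 0.392).

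**Figure D2:**
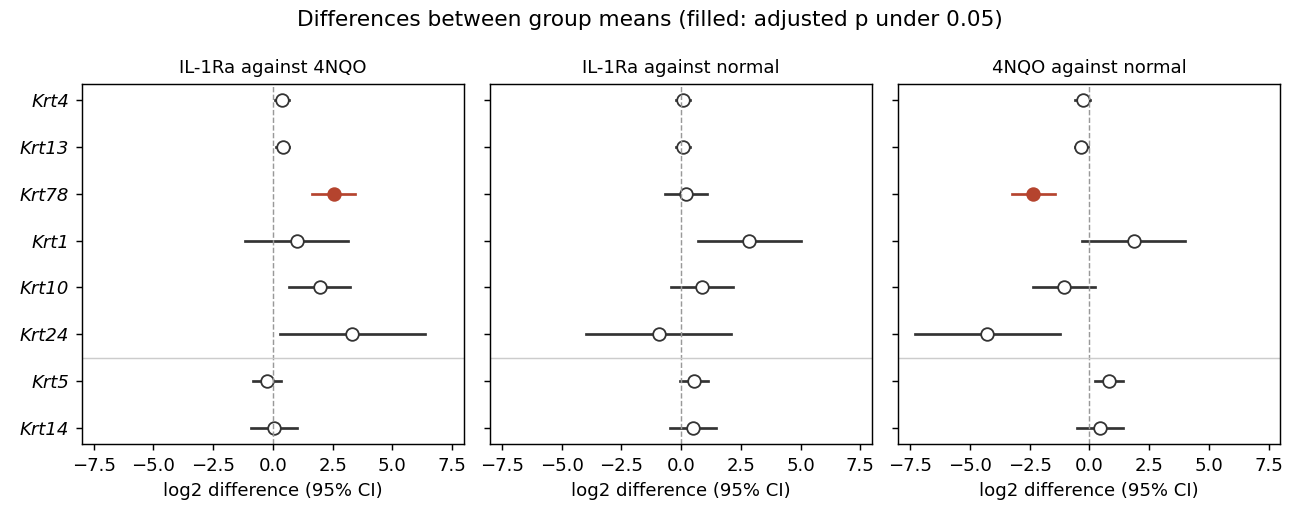
Log2 difference between group means (x axis, dot) with its 95% confidence interval (line) for the 6 suprabasal keratins and, below the grey line, the basal keratins Krt5 and Krt14; filled red dots passed an adjusted p of 0.05. Only Krt78 is filled, at 2.54 for IL-1Ra against 4NQO and -2.34 for 4NQO against normal, and the widest intervals are those of Krt24 and Krt1.

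Because a filament needs both chains, the 2 pairs were also compared within an array, as the log2 value of the type II gene minus that of its type I partner. The level of this difference has no meaning of its own, since probe sets differ in brightness, but its change between groups shows whether the partners moved alike. Krt4 minus Krt13 was -0.12, -0.10 and -0.07 on the IL-1Ra arrays, 0.01, -0.11 and -0.09 on the 4NQO arrays and -0.16, -0.09 and -0.08 on the normal arrays. All 3 groups overlapped, and the group means differed by 0.05 or less (exact two-sided permutation p = 0.6 for 4NQO against normal, 0.6 for IL-1Ra against 4NQO and 0.7 for IL-1Ra against normal). Krt1 minus Krt10 was -0.57, -1.90 and -0.92 on the IL-1Ra arrays, -0.35, -1.34 and 1.16 on the 4NQO arrays and -3.68, -2.60 and -3.03 on the normal arrays. Here every array of both treated groups lay above every normal array. The mean was 2.93 log2 higher in 4NQO tongues and 1.97 higher in IL-1Ra tongues than in normal tongues, each with an exact two-sided permutation p of 0.1, the smallest that 3 arrays against 3 allow. IL-1Ra and 4NQO tongues overlapped (-0.95, exact permutation p = 0.4). With any single array left out the 4NQO difference from normal ran from 2.26 to 3.51 and the IL-1Ra difference from 1.68 to 2.36.

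**Figure D3:**
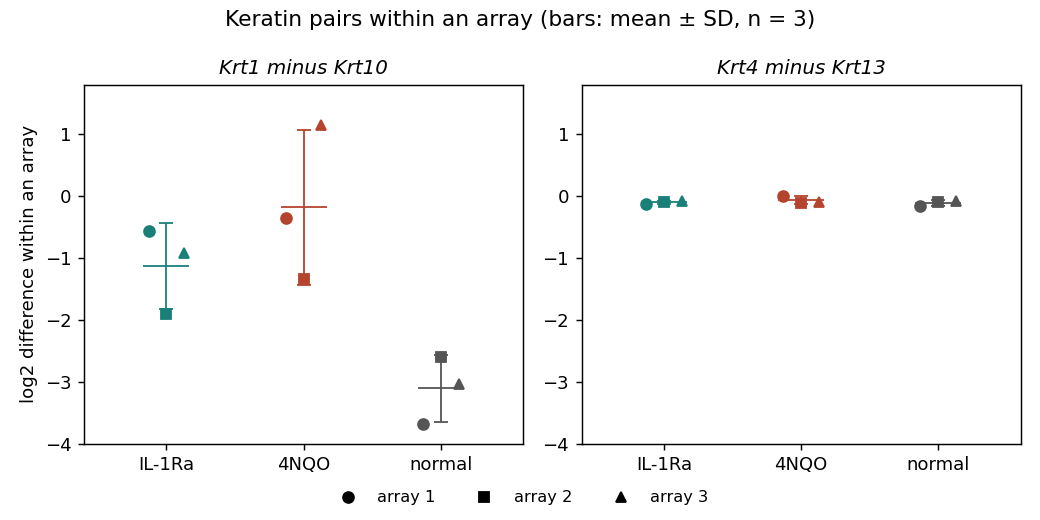
Difference in log2 intensity within an array (y axis) between the partners Krt1 and Krt10 (left) and Krt4 and Krt13 (right), by group, with mean and SD bars. Krt1 minus Krt10 lies between -1.90 and 1.16 on the arrays of treated rats and between -3.68 and -2.60 on normal arrays, whereas Krt4 minus Krt13 stays within -0.16 and 0.01.

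Krt24 had the widest range of the 6 genes. It read 10.79, 11.92 and 8.21 on the IL-1Ra arrays, 4.25, 6.53 and 10.17 on the 4NQO arrays and 12.13, 10.02 and 11.59 on the normal arrays. 4NQO arrays 1 and 2 lay below all other arrays, and 4NQO array 3 fell within the normal range. Krt24 averaged 6.98 ± 2.99 in 4NQO tongues and 11.25 ± 1.10 in normal tongues, a difference of -4.26 log2 (SE 1.36, 95% CI -7.28 to -1.24), with a limma adjusted p of 0.0608. No fold is given, because the 4.25 of 4NQO array 1 lay below the median of that array, 5.26, and was not shown to be above background. The difference was -2.89 without 4NQO array 1 (adjusted p = 0.149). It passed without 4NQO array 3 (-5.86, adjusted p = 0.0147) and with array weights (-5.43, adjusted p = 0.0149), and with any other single array left out its adjusted p was 0.0536 to 0.165. IL-1Ra tongues averaged 10.31 ± 1.90, 3.32 above 4NQO tongues (95% CI 0.30 to 6.35, adjusted p = 0.222), or 1.95 without 4NQO array 1 (adjusted p = 0.435) and 4.92 without 4NQO array 3 (adjusted p = 0.0302). Against normal tongues the IL-1Ra mean was 0.94 lower (95% CI -3.96 to 2.08, adjusted p = 0.717), which turned to 0.11 higher without IL-1Ra array 3.

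Genes whose course over the 9 arrays was most like that of Krt24 included hair-type genes. Among 3361 other genes with a range of at least 1 log2, the most similar were Tchh (trichohyalin, a protein of the hair root sheath and of filiform papillae, Pearson r = 0.998), the hair keratin Krt36 (r = 0.966) and Bicdl1 (r = 0.949). These r values describe 9 arrays that also differ by group and carry no test. Tchh read 11.09, 12.29 and 8.98 on the IL-1Ra arrays, 4.58, 7.24 and 10.74 on the 4NQO arrays and 12.57, 10.57 and 12.20 on the normal arrays, so the same arrays were high and low for both genes. On 4NQO array 1 Tchh, like Krt24, lay below the array median of 5.26 and was not shown to be above background.

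All 3 hair keratins measured, Krt36, Krt86 and Krt33b, fell in 4NQO tongues, with a median difference of -4.70. Of all probe sets 5.44% passed lower. Krt36 averaged 6.34 ± 2.70 in 4NQO tongues and 12.14 ± 1.07 in normal tongues (-5.80, limma adjusted p = 0.0176). Krt86 averaged 6.10 ± 0.36 in 4NQO tongues and 10.74 ± 0.83 in normal tongues (-4.64, adjusted p = 0.0111), and Krt33b differed by -4.70 (adjusted p = 0.0159). Krt36 on 4NQO arrays 1 and 2 (4.50 and 5.09) and the Krt33b mean of 4NQO tongues (4.93) lay below the 4NQO array medians (5.23 to 5.26). They were not shown to be above background, so the sizes of the Krt36 and Krt33b falls are uncertain. On 4NQO array 3 Krt36 was at 9.43, well above its 4.50 and 5.09 on the others, while Krt86 was low there too, at 6.46. In IL-1Ra tongues the 3 genes were higher than on every 4NQO array, as were 8.92% of all probe sets. For Krt36 the arrays barely separated, at 9.438 on IL-1Ra array 3 and 9.434 on 4NQO array 3. The median difference of the 3 genes was 3.30. By limma 0 of 3 passed (adjusted p = 0.0761 for Krt36, 0.0855 for Krt86 and 0.110 for Krt33b), though 3 of 3 had an unadjusted p below 0.05. Without normal array 3 none of the 3 passed in 4NQO against normal tongues, and without normal array 1 only 1 did.

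**Figure D4:**
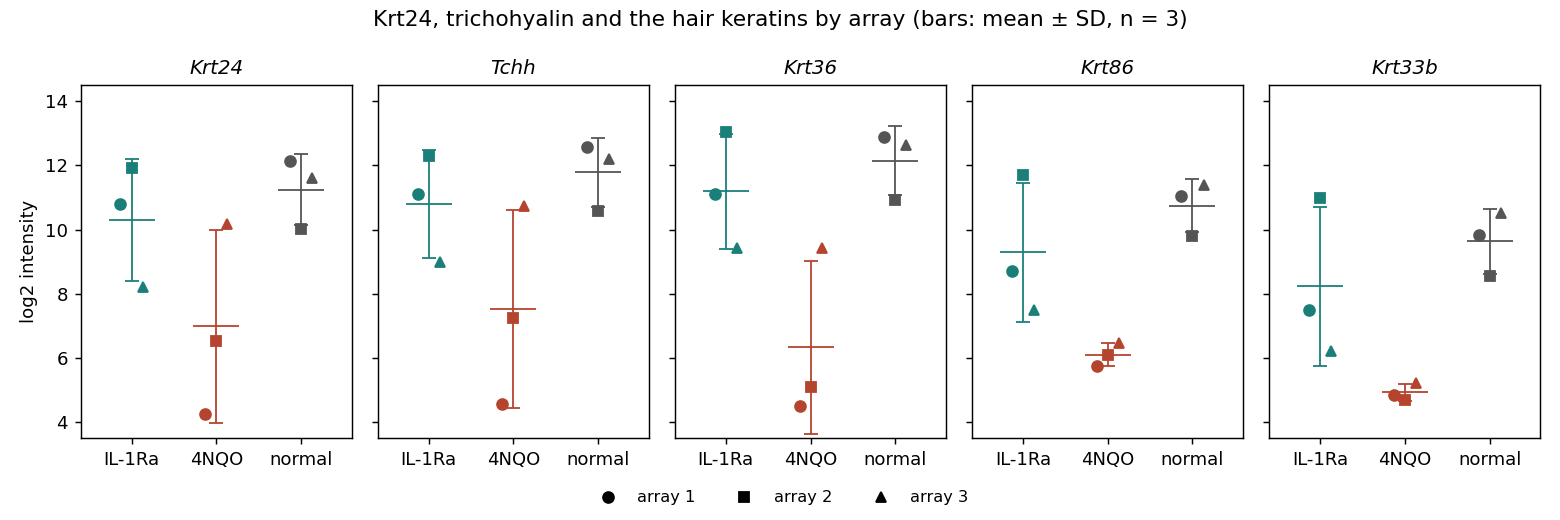
Log2 intensity (y axis) of Krt24, trichohyalin (Tchh) and 3 hair keratins on each array of the IL-1Ra, 4NQO and normal groups (x axis), with mean and SD bars. Krt24, Tchh and Krt36 are all high on 4NQO array 3 (10.17, 10.74 and 9.43), whereas Krt86 and Krt33b read 6.46 and 5.23 there.

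The other members had different nearest genes. For Krt78 they were Glrx, which encodes glutaredoxin (r = 0.996), Serpinb11, a serpin (r = 0.994), and Ly6g6c (r = 0.993). Glrx averaged 12.44 in IL-1Ra tongues, 9.80 in 4NQO tongues and 12.26 in normal tongues. The nearest genes of Krt13 were Sbsn (suprabasin, r = 0.993), Dmkn (dermokine, r = 0.989) and Tmem254 (r = 0.981). Suprabasin and dermokine are secreted by differentiated keratinocytes, and Dmkn was also among the nearest genes of Krt4 (r = 0.988), beside Ap1s3 (r = 0.991) and C18h5orf46 (r = 0.984). Krt10 was most like Klc3, Atp6v0a4 and Lypd3, a surface protein of suprabasal cells (r = 0.976, 0.976 and 0.973). Krt1 stood apart, with Cdh1 (E-cadherin, r = 0.972), Urah (r = 0.970) and the chemokine gene Cxcl16 (r = 0.957) as its nearest genes. Cdh1 averaged 10.26 in IL-1Ra tongues, 9.99 in 4NQO tongues and 9.59 in normal tongues.

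Within groups the members tended to deviate together. After each group mean was subtracted, all 15 pairs of members correlated above 0 over the 9 arrays, from 0.15 for Krt78 with Krt24 to 0.96 for Krt4 with Krt13. Krt1 correlated at 0.95 with Krt13 and 0.85 with Krt10 in these deviations, although over the 9 arrays as measured it correlated at only 0.40 with Krt13 and 0.57 with Krt10. The deviations come mostly from the 4NQO group, where array 2 was the lowest for 5 of the 6 genes and array 3 the highest for 5. Among the normal arrays, array 2 was the lowest for 6 of the 6. The same array 2 had the lowest mean of its group over the general keratinocyte genes (8.52, against 8.97 and 9.46 on the other 4NQO arrays), and over the fibroblast genes (8.44, against 9.82 and 9.17). Normal array 2 also had the lowest general keratinocyte mean of its group (8.58, against 8.88 and 8.82) but the highest fibroblast mean (10.35, against 10.12 and 10.06). The part of tissue make-up in this spread was not tested.

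Levels of the 6 keratins were also set against epithelial genes of the same array. The mean of the 6 minus the mean of 7 general keratinocyte genes was 2.76, 2.53 and 2.34 on the IL-1Ra arrays, 0.83, 0.63 and 2.0 on the 4NQO arrays and 2.66, 2.08 and 2.60 on the normal arrays. The 7 include the integrin genes Itgb4 and Itga6, which rose past the threshold in 4NQO against normal tongues. Their rise enters this scale and lowers its 4NQO values. Measured against the basal keratins Krt5 and Krt14, the mean of the 6 was -0.58, -0.80 and -0.68 on the IL-1Ra arrays, -2.49, -2.93 and -1.73 on the 4NQO arrays and -0.83, -0.50 and -0.73 on the normal arrays. In both scales all 4NQO arrays were below all others. The exact two-sided permutation p was 0.1 against either other group in both scales, the smallest that 3 arrays against 3 allow. IL-1Ra and normal arrays overlapped in both scales. The group mean against Krt5 and Krt14 was -0.69 in IL-1Ra tongues and -0.68 in normal tongues, against -2.39 in 4NQO tongues. These means join unlike genes and do not show that each keratin was at its normal level. In IL-1Ra against normal tongues Krt1 differed by 2.85, Krt10 by 0.88 and Krt78 by 0.20. Krt4 differed by 0.09, Krt13 by 0.08 and Krt24 by -0.94. The means also take in the Krt24 value of 4NQO array 1 (4.25), not shown to be above background.

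Among the basal genes, 1 of 4 measured rose in 4NQO tongues and 0 fell, beside 9.41% higher over all probe sets. Their median difference was 0.91. The riser was Tp63, which encodes the basal regulator p63 (9.49 ± 0.66 in 4NQO tongues and 8.09 ± 0.54 in normal tongues, 1.40, limma adjusted p = 0.0226). Krt5 read 12.12, 12.13 and 12.97 on the 4NQO arrays and 11.93, 11.07 and 11.78 on the normal arrays, without overlap (0.81, adjusted p = 0.0635). Krt14 overlapped between the groups (0.45, adjusted p = 0.50). Between IL-1Ra and 4NQO tongues 0 of 4 passed by limma, 0 also at an unadjusted p below 0.05, and the differences of Krt5 and Krt14 were -0.26 and 0.07. Leaving out normal array 2 or normal array 3 left 0 basal genes past the threshold, and leaving out 4NQO array 1 left 2.

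Other keratins gave few calls. Krt23, a type I keratin gene that lies between Krt10 and Krt13 in the chromosome 10 cluster, had the clearest course: it averaged 9.94 ± 0.25 in IL-1Ra tongues, 7.80 ± 0.11 in 4NQO tongues and 9.91 ± 0.37 in normal tongues. It fell by 2.10 in 4NQO against normal tongues (limma adjusted p = 0.0031) and rose by 2.14 in IL-1Ra against 4NQO tongues (adjusted p = 0.00143), and it passed in both comparisons whichever array was left out, with adjusted p up to 0.0193. Of the other stratified keratins measured, Krt12 and Krt79, 0 passed, also at an unadjusted p below 0.05. The stress keratin Krt17, which is raised in wounded epithelium, differed by 0.01 between 4NQO and normal tongues (adjusted p = 0.993) and was the only stress keratin measured. All 5 simple epithelial keratins lay below the array median, and 0 passed in any of the 3 comparisons by limma. At an unadjusted p below 0.05, 1 of the 5 was lower in 4NQO tongues. Leaving out an array gave calls in opposite directions there, 1 higher without 4NQO array 2 and 1 lower without 4NQO array 3.

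Of 13 genes for the cornified envelope, the protein shell that suprabasal cells lay down, 5 fell and 0 rose in 4NQO tongues, with a median difference of -1.31. Of all probe sets 5.44% passed lower in 4NQO against normal tongues, and 1.59% higher in IL-1Ra against 4NQO tongues. Scel (sciellin) fell by 1.42 (limma adjusted p = 0.00646), Ivl (involucrin) by 2.35 (adjusted p = 0.0105), Ppl (periplakin) by 1.65 (adjusted p = 0.0140) and Sprr3 by 2.12 (adjusted p = 0.0475). In IL-1Ra against 4NQO tongues 4 of 13 rose, with a median of 1.62, among them Scel (1.62, adjusted p = 0.00602), Ppl (1.93, adjusted p = 0.0182) and Ivl (2.50, adjusted p = 0.0182). At a limma unadjusted p below 0.05, 13 of 13 were higher in this comparison, and 8 of 13 were lower in 4NQO against normal tongues. Between IL-1Ra and normal tongues 0 of 13 passed by limma (2 at an unadjusted p below 0.05), and the median was 0.29. These counts moved with single arrays. The 5 that fell became 9 without 4NQO array 3, 7 without 4NQO array 2, 3 without normal array 1, normal array 2 or any single IL-1Ra array, and 1 without normal array 3. The 4 that rose became 12 without 4NQO array 3, 6 without 4NQO array 2 and 1 without any single IL-1Ra array.

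Of 24 measured regulators of the suprabasal programme, 3 rose and 4 fell in 4NQO tongues (median difference -0.09), beside the 9.41% higher and 5.44% lower over all probe sets. At an unadjusted p below 0.05 these numbers were 3 and 9. In IL-1Ra against 4NQO tongues 5 rose and 0 fell (median 0.25), or 9 and 1 at an unadjusted p below 0.05. Of all probe sets 1.59% passed higher there. Prdm1, a repressor that acts late in differentiation, fell by 1.98 in 4NQO against normal tongues (limma adjusted p = 0.00522) and rose by 2.27 in IL-1Ra against 4NQO tongues (adjusted p = 0.00396). Hopx, a homeodomain-only protein of differentiating keratinocytes, fell by 1.92 (adjusted p = 0.0047) and rose by 1.82 (adjusted p = 0.00769) in the same 2 comparisons. Ehf, an ETS factor of epithelia, differed by -0.93 (adjusted p = 0.0116) and 1.32 (adjusted p = 0.00608). Grhl3, a grainyhead-like factor needed for the skin barrier, rose by 1.11 in IL-1Ra against 4NQO tongues (adjusted p = 0.0396), and Jag2, a Notch ligand, rose by 0.72 in 4NQO against normal tongues (adjusted p = 0.0106). Without 4NQO array 3 the regulators that fell in 4NQO tongues numbered 7 and those that rose in IL-1Ra against 4NQO tongues 11. Without normal array 3 the regulators that rose in 4NQO tongues numbered 0, without normal array 2 they numbered 1, and those that fell numbered 2 without normal array 3. Those that rose in IL-1Ra against 4NQO tongues numbered 3 without 4NQO array 2, normal array 1, normal array 3 or any single IL-1Ra array. Among 10 desmosome genes 1 rose in 4NQO tongues, near the 9.41% higher over all probe sets. It was Dsc2 (desmocollin 2), by 1.27 (limma adjusted p = 0.0174). In IL-1Ra against 4NQO tongues 0 passed by limma (4 at an unadjusted p below 0.05), where Dsg1 (desmoglein 1) differed by 1.68 (adjusted p = 0.0846). Without 4NQO array 3, 5 desmosome genes rose and 1 fell in that comparison, and without normal array 1 or normal array 3 no desmosome gene passed in 4NQO against normal tongues.

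Marker genes of cell types other than suprabasal cells also differed between the groups. The counts below stand beside 5.44% of all probe sets lower and 9.41% higher in 4NQO against normal tongues. In IL-1Ra against 4NQO tongues 2.33% of probe sets passed in either direction. Of 10 fibroblast genes 8 fell in 4NQO tongues (median -1.11), and their mean level ran from 9.66 to 10.03 on IL-1Ra arrays, 8.44 to 9.82 on 4NQO arrays and 10.06 to 10.35 on normal arrays. That count was 1 without normal array 2 or normal array 3 and 3 without normal array 1. Of 7 endothelial genes 4 rose in 4NQO tongues, or 2 without normal array 1 and 0 without normal array 3. Of 11 leukocyte genes 2 fell in 4NQO tongues, or 0 without normal array 2 or normal array 3. In IL-1Ra against 4NQO tongues 0 fibroblast, endothelial or leukocyte genes passed by limma. At an unadjusted p below 0.05, 7 fibroblast and 5 leukocyte genes were higher there, and 6 endothelial genes were lower. The mean of 15 muscle genes was 10.48 to 10.87 on IL-1Ra arrays, 11.03 to 11.34 on 4NQO arrays and 10.96 to 11.22 on normal arrays, and 3 of the 15 fell in IL-1Ra against 4NQO tongues, with 0 to 4 falling when an array was left out. Of the general keratinocyte genes 2 of 7, Itgb4 and Itga6, rose in 4NQO tongues (1 to 3 with an array left out). The mean of the 7 was 9.07 to 9.35 on IL-1Ra arrays, 8.52 to 9.46 on 4NQO arrays and 8.58 to 8.88 on normal arrays. The part of these shifts in the keratin results was not tested.

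The members lie in the 2 keratin clusters of the rat genome. In the RefSeq gene table Krt1, Krt4 and Krt78 are on chromosome 7, with 6 protein-coding genes from Krt1 to Krt78, all keratins, of which 4 were measured. Krt24, Krt10 and Krt13 are on chromosome 10, where 48 protein-coding genes run from Krt24 to Krt13 and 11 were measured. Genes beside the members had unlike courses. Krt36, next to Krt13, was among the hair keratins that fell in 4NQO tongues, and Krt23 lies between Krt10 and Krt13, whereas the 2 neighbours that follow were dim, below the array median. Krt79, between Krt4 and Krt78, read 3.62 in IL-1Ra tongues, 3.56 in 4NQO tongues and 3.57 in normal tongues. Krt25, next to Krt24, read 4.91 in IL-1Ra tongues, 4.59 in 4NQO tongues and 4.67 in normal tongues.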

How the data were processed

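Biotin-labelled cRNA from 9 tongue samples was read on Affymetrix rat genome arrays. The values the authors deposited were 1 linear intensity per probe set and array. Affymetrix Expression Console and RMA are the tools in the submitters' processing notes, with no version given in these sources. RMA draws the arrays toward a common distribution, which can hide a shift of most genes. The deposited arrays still differed in spread. Their upper quartile was 7.16 to 7.26 log2 on IL-1Ra arrays, 7.21 to 7.28 on 4NQO arrays and 7.04 to 7.08 on normal arrays. Log2 of each intensity was taken. Of 31099 probe sets, 57 Affymetrix controls were left out and 31042 were tested, of which 20826 had a single gene symbol. For a gene with several probe sets the one of highest mean was used. Annotation was the platform's, and the gene identifiers of all 6 members were found in the RefSeq table.

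Groups were taken from the treatment label. The labels did not say that each sample was a separate animal, so the p-values measure only the spread between these samples. A model with 3 group means was fitted with limma 3.58.1 in R 4.3.3 (eBayes, 6 residual and 4.01 prior degrees of freedom), with two-sided tests and Benjamini-Hochberg adjustment over all probe sets in each of 3 comparisons (threshold 0.05). The study's methods name Student's test and analysis of variance for its data in general, not for the arrays in particular. Pair differences, and the mean of the 6 keratins minus epithelial genes, were tested by exact two-sided permutation. Figures were drawn with matplotlib in Python.

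Named genes were the 6 members, Krt5 and Krt14, the 3 genes most like each member by Pearson r, and from each list up to 4 genes with the lowest adjusted p in 4NQO against normal and in IL-1Ra against 4NQO. The members, lists and rules were chosen with earlier results of these data known. Alternatives were other scalings, a filter leaving out the 40% dimmest probe sets, a variance trend, array weights, only the 6 arrays compared, the methods' t-test and leaving out each array. Precision is limited by 3 arrays in a group.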

Additional observations from a re-analysis of the deposited data

How the results depend on the processing

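No paired analysis was possible because the labels give no replicate numbers shared between groups. Each member had 1 probe set, so the alternative with another probe set could not be run. Of the differences of single members, 149 of 162 kept direction and side of the threshold when an array was left out. Under the other settings 122 of 126 did. Krt4 in 4NQO against normal tongues moved from -0.28 to -0.20 after quantile normalization (limma adjusted p = 0.438). In IL-1Ra against normal tongues it moved from 0.09 to 0.15 after quantile normalization and to 0.20 after cyclic loess. Leaving out an array of the group not compared cannot change a difference, only its adjusted p. The same holds for the filter of dim probe sets, the variance trend and the fit of only the compared arrays. In these settings the direction was therefore fixed in advance, and only the side of the threshold could move. The sign turned for Krt1 in IL-1Ra against 4NQO (-0.22 without 4NQO array 2, and up to 2.27 without array 3) and for Krt24 in IL-1Ra against normal (0.11 without IL-1Ra array 3, and down to -1.75 without array 2). The cause was not tested.

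Members past the threshold in 4NQO against normal numbered 2 with array weights and 0 by the methods' t-test after Benjamini-Hochberg, against 1, and 1 to 3 with an array left out. In IL-1Ra against 4NQO they numbered 0 with the 6 compared arrays and 0 by the t-test after Benjamini-Hochberg, against 1, and 0 to 4 with an array left out. In IL-1Ra against normal they numbered 1 with array weights, 1 with the 6 compared arrays and 1 by the t-test unadjusted at a fold of 2 or 1.5, against 0, and 0 to 1 with an array left out.

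Probe sets past the threshold in 4NQO against normal numbered 4610 (63.4% higher), 2821 after quantile normalization (51.9% higher), 2480 after cyclic loess (47.7% higher), and by the t-test 452 at a fold of 2, 2249 at a fold of 1.5 and 1 after Benjamini-Hochberg, and 851 to 4417 with an array left out. In IL-1Ra against 4NQO they numbered 722 (68.6% higher), 195 with the 6 compared arrays (94.4% higher), 357 by the t-test at a fold of 2 and 0 after Benjamini-Hochberg, and 184 to 2353 with an array left out (cyclic loess: 79.9% higher). In IL-1Ra against normal they numbered 581 (71.1% higher), 203 after quantile normalization (46.3% higher), 97 after cyclic loess (35.1% higher), 3556 with array weights, 2714 with the 6 compared arrays, and by the t-test 195 at a fold of 2, 1391 at a fold of 1.5 and 109 after Benjamini-Hochberg, and 0 to 2084 with an array left out.

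List counts with an array left out, chosen after seeing the data, ran from 0 to 3 for hair keratins that fell, 1 to 9 for cornified envelope genes that fell, 0 to 4 and 2 to 7 for regulators that rose and fell, 0 to 2 for basal genes that rose and 1 to 8 for fibroblast genes that fell in 4NQO against normal. In IL-1Ra against 4NQO they ran from 1 to 12 for cornified envelope genes that rose and 3 to 11 for regulators that rose. With 3 arrays a group, a difference that missed the threshold may still exist.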

Other observations

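Between Krt10 and Krt13 on chromosome 10 lie keratin-associated protein genes, whose products embed hair keratins. Those measured were picked out after their values were seen and carry no test. Krtap1-5 averaged 6.54 in IL-1Ra tongues, 4.20 in 4NQO tongues and 8.49 in normal tongues. Krtap1-1 averaged 7.05, 6.13 and 8.53 in the same groups. The Krtap1-5 mean of 4NQO tongues lay below the 4NQO array medians (5.23 to 5.26) and was not shown to be above background. Krt15, a basal type I keratin next to Krt13, averaged 11.96 ± 0.08 in IL-1Ra tongues, 11.67 ± 0.58 in 4NQO tongues and 10.67 ± 0.53 in normal tongues (limma adjusted p = 0.0596 for IL-1Ra against normal and 0.0503 for 4NQO against normal).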
